A study of Mus musculus with 27 samples.

Results

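The 6 libraries described here hold the microRNAs (miRNAs) of mouse cortex 3 h into reperfusion after a transient stroke. They are the 3 ipsilateral and the 3 contralateral libraries labelled 3 h, chosen by their labels from 27 libraries in all, and every entry of the table of 1842 mature miRNAs was considered. The whole series has 9 groups of 3 libraries: ipsilateral and contralateral cortex at 3, 6, 12 and 24 h, and sham cortex. All mice were wild-type C57BL6, a common inbred laboratory strain, and 7 to 8 weeks old.

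In the groups of 3 h, the right middle cerebral artery, which supplies most of the lateral cortex, was blocked with a suture for 35 min (MCAO) and then reopened. Ipsilateral cortex is the cortex on the side of the blocked artery, and contralateral cortex is that of the opposite hemisphere of operated mice. Sham mice were anesthetized and had their arteries exposed with no suture inserted. Replicates 1, 2 and 3 come from distinct days of surgery. The sources used here do not say whether the 2 hemispheres of a number were taken from the same animal, or whether a library holds 1 animal or several. Contralateral cortex comes from an operated animal, so a difference between hemispheres leaves out whatever both sides share.

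miRNAs are short RNAs cut from hairpin precursors, and each guides silencing proteins to messenger RNAs that pair with its seed, the bases near its 5′ end. The level of a mature miRNA depends on transcription of its gene, on cutting of the hairpin and on the lifetime of the mature strand. In brain, ischemia is known as a setting in which miRNAs of hypoxia, inflammation and neuronal activity respond, on different time scales.

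The mature sequences of the entries on which the results turn are shown first, from RefSeq (GRCm38.p6), with the seed (bases 2 to 8) in capitals. Of the 1470 entries tested, 1290 matched a mature sequence by name. The first set had the smallest p-values among entries with higher levels in ipsilateral cortex on each of the 3 days, or was called higher by DESeq2, or, as with miR-701-5p, had a hemisphere difference that was larger at 24 h. miR-3960, miR-5099, miR-467d-5p and miR-1893 belong to it and are named only.
miR-7009-3p: uCUUUUCCccucucccugcag
miR-1934-5p: uCUGGUCCccugcuucguccucu
miR-7687-3p: cCACUCAGucgccccgccaca
miR-6968-5p: aGGGGGCGagggggcccugugg
miR-2861: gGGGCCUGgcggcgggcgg
miR-5131: cGGCGCCCcacggagccccgagc
miR-8109: gCGCCGCGugccggccgcggg
miR-7082-5p: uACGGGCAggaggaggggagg
miR-6941-3p: cUAACUCGgcugcucccaaag
miR-6405: gUGGGAAGcagugggaagcagug
miR-204-5p: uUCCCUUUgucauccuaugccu
miR-701-5p: uUAGCCGCugaaauagaugga

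No 2 of these 12 have the same seed. The second set had lower levels in ipsilateral cortex on each day, or belongs to a seed family most of whose listed members did. The miR-29 sequences have the seed AGCACCA in common, and the miR-15/16 sequences the seed AGCAGCA.
miR-218-2-3p: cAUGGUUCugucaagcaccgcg
miR-377-3p: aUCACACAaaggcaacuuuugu
miR-9-3p: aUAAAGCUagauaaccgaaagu
miR-29a-3p: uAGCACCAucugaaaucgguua
miR-29b-3p: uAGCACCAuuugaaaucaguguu
miR-29c-3p: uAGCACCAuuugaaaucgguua
miR-15a-5p: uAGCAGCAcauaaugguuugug
miR-15b-5p: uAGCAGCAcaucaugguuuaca
miR-16-5p: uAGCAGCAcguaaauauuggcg
miR-195a-5p: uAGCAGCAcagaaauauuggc
miR-322-5p: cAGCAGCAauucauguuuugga
miR-497a-5p: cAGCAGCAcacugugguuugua

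The 6 libraries held between 861339 and 1903416 counts. Levels are in CPM: counts scaled to a common library size, where a library's size is its total count multiplied by its TMM factor (trimmed mean of M-values, a scaling factor between libraries). The factors of ipsilateral replicate 1 and contralateral replicate 1 were 1.51 and 1.29, and those of the other 4 libraries lay between 0.888 and 1.08. The median count of an entry was 21 in ipsilateral replicate 1 and 29 in contralateral replicate 1, against 11 to 16 in the others, so most entries were rare. The presence of neuronal RNA was checked on neuron-enriched miRNAs: miR-128-3p, miR-9-5p and miR-124-3p had at least 2321 CPM in each of the 6 libraries. This check cannot tell cortex from other brain regions, which also hold neurons. In bulk tissue, fewer cells of a type and less RNA per cell cannot be told apart.

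At 3 h, the entries with the largest hemisphere differences were rare miRNAs with higher levels in ipsilateral cortex, while the most abundant brain miRNAs had log2 fold changes near 0. No entry passed edgeR's quasi-likelihood test with the day of surgery as a block at an adjusted p of 0.05, in either direction, of 1470 tested (0% called). The smallest adjusted p was 0.0540, that of miR-7009-3p. An unadjusted p under 0.05 was reached by 68 entries (4.63%), of which 59 (4.01%) were higher and 9 (0.612%) lower. A threshold of 0.05 gives about as large a total share where nothing differs. The median log2 fold change over all 1470 entries was 0.01. DESeq2, a second count test, called 12 entries higher and none lower, 1.53% of the 786 to which it gave an adjusted p.

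The levels of single libraries showed the same imbalance among the large differences. All 3 ipsilateral libraries lay above all 3 contralateral ones for 94 entries (6.39%), and all below for 39 (2.65%). With 3 libraries a side, some entries separate in this way without any true difference. A log2 fold change above 1 was fitted for 46 entries (3.13%) and one below -1 for 7 (0.476%). Directions over the days were balanced: 235 entries (16%) were higher in ipsilateral cortex on each of the 3 days and 226 (15.4%) were lower on each.

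**Figure D1:**
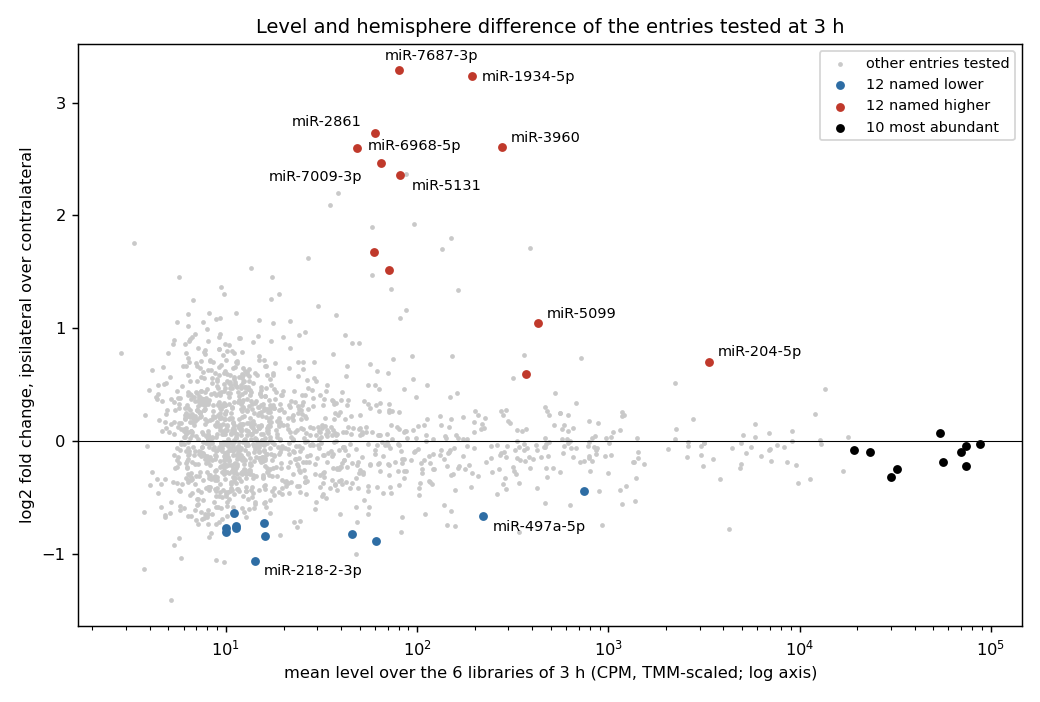
Each point is 1 of the 1470 entries tested at 3 h, with its mean level over the 6 libraries in CPM on a log axis and its fitted log2 fold change, ipsilateral over contralateral cortex. The 12 named higher entries (red) have levels under 1000 CPM except miR-204-5p, and the 10 most abundant entries (black) lie between -0.32 and 0.07.

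The entry with the smallest p was miR-7009-3p, whose mature sequence lies at chr3:36475461-36475481, minus strand (GRCm38), in an intron of Anxa5, the gene of a protein that binds exposed phosphatidylserine. It had 196, 44.2 and 89.6 CPM in ipsilateral replicates 1, 2 and 3, against 22.9, 16.2 and 18.2 CPM in contralateral and 21.9, 14.9 and 17.2 CPM in sham replicates. The lowest ipsilateral library was above the highest contralateral and sham libraries, while the 6 contralateral and sham libraries shared one narrow range. The log2 fold change over contralateral cortex was 2.46 ± 0.48 (SE), with log2 ratios of 3.01, 1.36 and 2.20 on the 3 days. This difference missed the threshold in edgeR (adjusted p = 0.0540) and passed in DESeq2 (adjusted p = 1.4e-04).

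miR-5099, an entry of moderate level, had a smaller but more even difference. Its levels were 489, 633 and 599 CPM in ipsilateral and 327, 269.6 and 259.5 CPM in contralateral cortex, and 307, 292 and 245 CPM in sham cortex. All 3 ipsilateral libraries were above all others, and the lowest ipsilateral one was replicate 1. The log2 fold change was 1.04 ± 0.25 (edgeR adjusted p = 0.230, DESeq2 adjusted p = 0.022).

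miR-3960 and miR-2861, described in mouse as promoters of osteoblast differentiation, had parallel levels. The mature miR-2861 lies at chr2:32712819-32712837, minus strand, within an exon of Cdk9, the gene of a kinase that releases paused RNA polymerase. miR-3960 had 528, 265 and 640.1 CPM in ipsilateral and 99.5, 49.1 and 79.0 CPM in contralateral cortex, and miR-2861 had 143, 41.8 and 135 CPM in ipsilateral and 18.4, 12.3 and 11.8 CPM in contralateral libraries. For both, replicate 2 was the lowest ipsilateral library and still above every contralateral one. The log2 fold changes were 2.60 ± 0.63 for miR-3960 and 2.73 ± 0.71 for miR-2861 (edgeR adjusted p = 0.242 and 0.244).

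The largest fitted differences were those of miR-7687-3p and miR-1934-5p. miR-7687-3p lies in an intron of Gse1 (chr8:120538734-120538754, plus strand), and miR-1934-5p lies in no annotated gene other than its own (chr11:69663055-69663077, plus strand). miR-7687-3p had 164, 143 and 126 CPM in ipsilateral cortex, against 21.3, 9.70 and 17.2 CPM in contralateral and 11.3, 10.5 and 8.08 CPM in sham cortex. Its 3 ipsilateral libraries were close to each other, unlike those of miR-1934-5p, which had 662, 116 and 281 CPM in ipsilateral cortex, against 60.6, 14.9 and 31.8 CPM in contralateral cortex. Day 1 was the highest and day 2 the lowest day for miR-1934-5p in both hemispheres, and its daily log2 ratios of 3.41, 2.83 and 3.08 were alike. The log2 fold changes were 3.28 ± 0.88 for miR-7687-3p and 3.24 ± 0.75 for miR-1934-5p (edgeR adjusted p = 0.256 and 0.232).

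miR-6968-5p lies in an intron of Phf1, the gene of a protein of the Polycomb machinery, and opposite to an exon of Cuta (chr17:26935472-26935493, plus strand). It was at 129, 41.8 and 82.0 CPM in ipsilateral and 15.2, 11.6 and 11.8 CPM in contralateral cortex. Replicate 2 again was the lowest ipsilateral library, and the groups did not overlap. Its log2 fold change was 2.60 ± 0.67 (edgeR adjusted p = 0.244). The other arm of the same hairpin, miR-6968-3p, had overlapping groups, with 117, 17.4 and 24.8 CPM in ipsilateral and 135, 27.8 and 20.0 CPM in contralateral cortex. The other arms of miR-7082-5p and miR-7687-3p likewise had overlapping groups: miR-7082-3p was at 14.1, 8.68 and 6.48 CPM in ipsilateral and 13.5, 11.6 and 9.08 CPM in contralateral libraries, and miR-7687-5p at 11.4, 4.73 and 11.9 CPM in ipsilateral and 8.60, 8.40 and 3.63 CPM in contralateral libraries. The groups of miR-7082-5p itself also overlapped, with 29.2 CPM in ipsilateral replicate 2 and 41.0 CPM in contralateral replicate 1. For miR-204, both arms were higher on each day, with log2 fold changes of 0.70 for miR-204-5p and 0.81 for miR-204-3p. Both arms of a hairpin come from 1 precursor, and whether the arms of any hairpin differ from each other was not tested.

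miR-5131, within an exon of the phospholipase gene Ddhd1 (chr14:45657972-45657994, minus strand), had 199, 91.5 and 123 CPM in ipsilateral and 36.9, 25.9 and 14.5 CPM in contralateral cortex. The groups did not overlap; the log2 fold change was 2.35 ± 0.72, with an edgeR adjusted p of 0.417. Another 3 entries of the rule overlapped between hemispheres in spite of a higher value on each day, in each case through ipsilateral replicate 2. miR-7082-5p, in an intron of Raver1, had 159.6, 29.2 and 89.6 CPM in ipsilateral and 41.0, 19.4 and 19.1 CPM in contralateral cortex (log2 fold change 1.67 ± 0.44). miR-6941-3p, in an intron of the Notch ligand gene Jag2, had 157, 34.7 and 136 CPM in ipsilateral and 36.5, 27.1 and 37.2 CPM in contralateral libraries (1.52 ± 0.47). For miR-6405, in an intron of Pax2, the levels were 587, 312 and 452 CPM in ipsilateral and 339, 249 and 294 CPM in contralateral libraries (0.59 ± 0.18). Their edgeR adjusted p values were 0.244, 0.417 and 0.417.

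**Figure D2:**
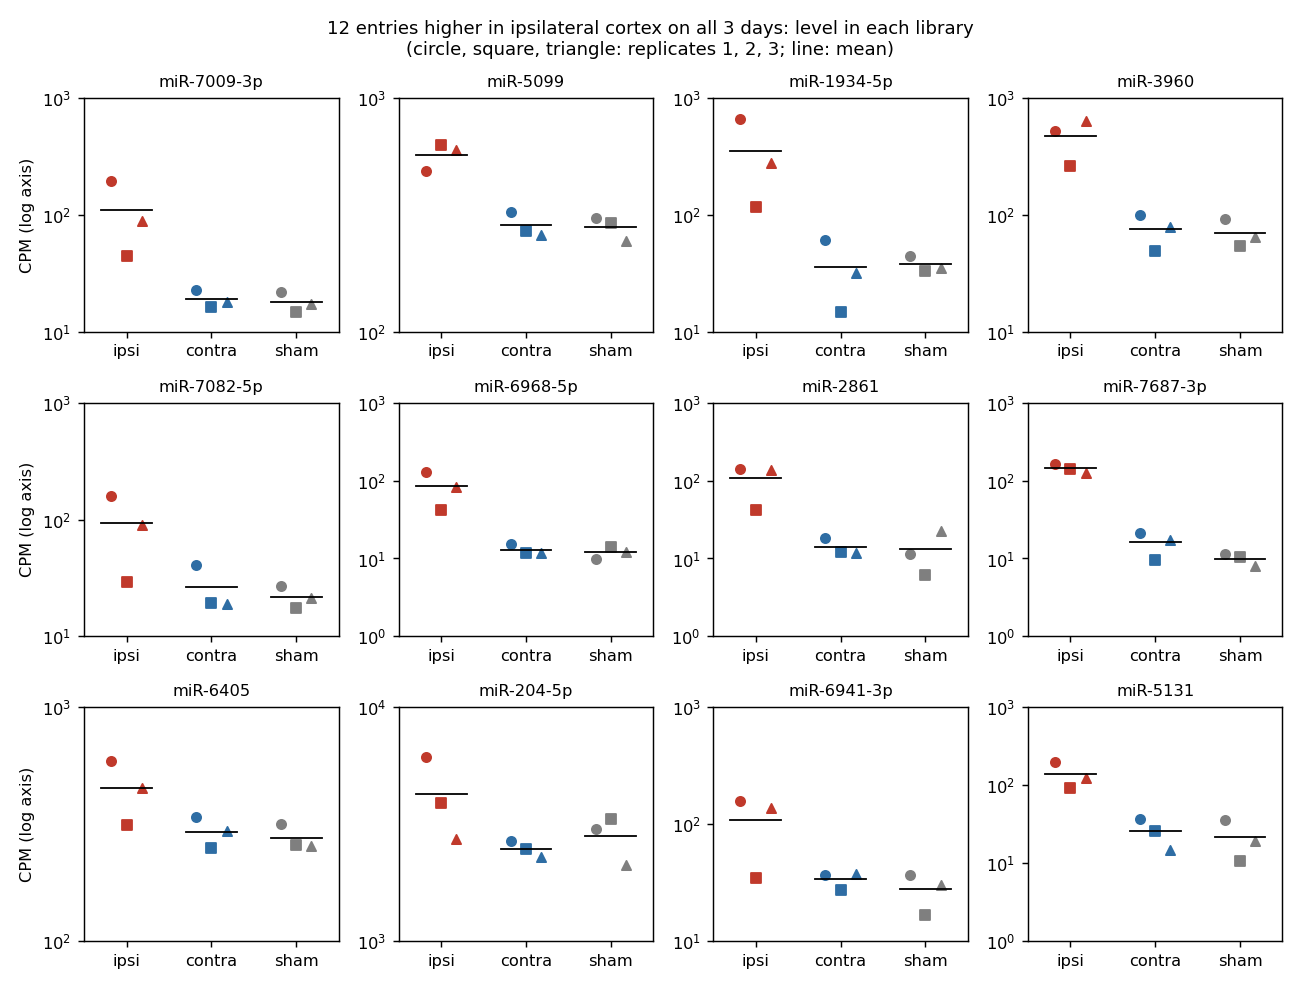
Level in CPM (log axis) of the 12 named higher entries in each ipsilateral, contralateral and sham library of 3 h or sham surgery, with replicates 1, 2 and 3 as circle, square and triangle and the mean as a line. In 9 of the 12 panels all ipsilateral points lie above all contralateral ones, against 6.39% of all 1470 entries. The 12 were chosen by p-value and direction in these same libraries, which favours such separation. Replicate 2 is the lowest ipsilateral point for 9 entries.

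miR-204-5p was the only one of the 12 named higher entries with a mean level above 1000 CPM. It is encoded in an intron of Trpm3 (chr19:22750610-22750631, plus strand) and is known as a marker of the choroid plexus, the epithelium that makes cerebrospinal fluid. Its levels were 6122, 3896 and 2732 CPM in ipsilateral and 2679, 2480.3 and 2292 CPM in contralateral cortex. The groups did not overlap, but ipsilateral replicate 3 was close to the contralateral range, and sham cortex, with 3011, 3331 and 2121 CPM, overlapped with both. The log2 fold change was 0.70 ± 0.22 (edgeR adjusted p = 0.417), with daily log2 ratios of 1.19, 0.65 and 0.25. Of the other markers on the choroid plexus list, miR-204-3p, from the same hairpin, was at 14.7, 7.10 and 14.0 CPM in ipsilateral and 8.19, 5.82 and 5.45 CPM in contralateral cortex. miR-211-5p was at 16.1, 21.3 and 23.7 CPM in ipsilateral and 25.8, 20.0 and 20.9 CPM in contralateral libraries and overlapped. The summed level of the 3 markers was 6153, 3925 and 2769.9 CPM in ipsilateral and 2713, 2506 and 2319 CPM in contralateral cortex, nearly all of it miR-204-5p. The part of choroid plexus tissue in the miR-204-5p difference was not tested.

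The 12 entries that DESeq2 called higher were miR-7009-3p, miR-5099, miR-1934-5p, miR-3960, miR-7082-5p, miR-6968-5p, miR-2861, miR-7687-3p and miR-5131, described above, and miR-1893, miR-467d-5p and miR-8109. miR-1893 had 151, 90.7 and 204 CPM in ipsilateral and 33.6, 20.0 and 26.3 CPM in contralateral cortex, and a log2 fold change of 2.37 ± 0.77 in edgeR. miR-467d-5p had 109, 54.4 and 114 CPM in ipsilateral and 24.2, 20.0 and 28.1 CPM in contralateral libraries (1.90 ± 0.60), and miR-8109 had 77.8, 40.2 and 75.6 CPM in ipsilateral and 22.5, 9.05 and 6.35 CPM in contralateral libraries (2.20 ± 0.70). None of these 3 overlapped between hemispheres, and their edgeR adjusted p values were 0.472, 0.430 and 0.430. The outcome thus depended on the test: a fit of the 6 libraries alone with the day as a block called 49 entries higher (3.33%) and 4 lower (0.272%), on 2 residual degrees of freedom, and without the block 11 higher (0.748%) and 0 lower. edgeR with all libraries called miR-7009-3p with DESeq2's size factors (0.068%), with no filter on low counts (0.0543% of 1842) or without ipsilateral replicate 2 (0.068%). With the 15 libraries of sham, 3 h and 6 h it called 16 entries higher (1.09%), an alternative chosen after seeing the data.

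Lower levels in ipsilateral cortex were seen at an unadjusted p under 0.05 for 9 entries, against the 59 higher ones. miR-218-2-3p, in an intron of the axon guidance gene Slit3 (chr11:35616882-35616903, plus strand), had the smallest p in this direction, with 9.39, 14.2 and 3.24 CPM in ipsilateral and 17.2, 24.6 and 16.3 CPM in contralateral cortex. The groups did not overlap, although sham cortex, with 13.0, 12.2 and 18.2 CPM, overlapped with the ipsilateral group. These levels rest on few reads, with counts of 14, 18 and 3 in the ipsilateral and 42, 38 and 18 in the contralateral libraries. The log2 fold change was -1.06 ± 0.34 (edgeR adjusted p = 0.417).

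miR-497a-5p, of the miR-15/16 seed family, had 92.5, 224 and 195 CPM in ipsilateral and 172, 425 and 222 CPM in contralateral cortex (log2 fold change -0.67 ± 0.26, edgeR adjusted p = 0.751). It was lower on each day, while day 1 was the lowest day in both hemispheres, and the groups overlapped. miR-377-3p of the imprinted Mirg cluster had 40.2, 50.5 and 37.8 CPM in ipsilateral and 74.5, 125 and 39.0 CPM in contralateral cortex (-0.89 ± 0.39), with almost no difference on day 3. miR-9-3p, a neuronal miRNA, had 261, 1037 and 634 CPM in ipsilateral and 434, 1243 and 850.3 CPM in contralateral libraries (-0.45 ± 0.22), again with the lowest level of each hemisphere on day 1. The other named entries, miR-6959-5p, miR-544-5p, miR-6372, miR-188-5p, miR-7013-3p, miR-106a-5p, miR-7651-3p and miR-6913-5p, had log2 fold changes between -0.84 and -0.64. Among the 12 named lower entries, miR-218-2-3p and miR-6959-5p had groups that did not overlap, against 2.65% of all 1470 entries. The 12 were chosen by p-value and direction in these same libraries, which favours such separation. The smallest edgeR adjusted p after that of miR-218-2-3p was 0.751.

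The most abundant brain miRNAs had levels that overlapped between the hemispheres. miR-181a-5p, the most abundant entry, had 74228, 103065 and 82469.6 CPM in ipsilateral and 84814, 98100.4 and 81982 CPM in contralateral cortex. miR-128-3p, which is enriched in neurons, had 41636, 86233 and 77226 CPM in ipsilateral and 47515, 97365 and 94934 CPM in contralateral libraries, and miR-127-3p of the imprinted Rtl1-antisense RNA had 43095, 102622 and 77288 CPM in ipsilateral and 53137, 84848 and 83417 CPM in contralateral libraries. For miR-128-3p and miR-127-3p, replicate 1 was the lowest library of each hemisphere and of sham cortex, where the levels were 60639, 104719.9 and 105916 CPM for miR-128-3p and 47826, 106949 and 67307 CPM for miR-127-3p. Within each day, miR-128-3p was lower in ipsilateral than in contralateral cortex, with log2 ratios of -0.19, -0.18 and -0.30. Of the 10 most abundant entries, 4 (miR-128-3p, miR-22-3p, miR-434-3p and miR-9-5p) were lower on each day and 0 higher on each, against 15.4% and 16% of all entries. The fitted log2 fold changes of the 10 most abundant entries, which also include miR-26a-5p, miR-22-3p, let-7f-5p, miR-434-3p, miR-9-5p, miR-30a-5p and miR-27b-3p, lay between -0.32 for miR-9-5p and 0.07 for let-7f-5p. Together these 10 took 53.7%, 57.1% and 55.4% of the counts in ipsilateral replicates and 54.9%, 57.4% and 57.8% in contralateral replicates. Within the families of miR-30, let-7, miR-181 and miR-29, members are nearly identical in sequence and reads may be divided between them, which makes a single member's value uncertain.

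Lists of miRNAs by family, genomic cluster or cell type placed most groups close to the median of all entries, and no member of any of the 24 lists passed edgeR's test. Lists are described by the median log2 fold change of their tested members, beside 0.01 for all 1470 entries. The sign of 14 of the 24 medians changed under at least 1 alternative setting or left-out library or day, among them all those of this paragraph except the miR-30 family's, which went from -0.02 without ipsilateral replicate 1 to -0.40 without ipsilateral replicate 2. The let-7 family, which marks differentiated cells, had a median of -0.05 over 10 members, the miR-181 family -0.07 over 4 and the miR-30 family -0.19 over 5. The miR-17/92 clusters, known for their part in proliferation, had -0.09 over 12 members and the miR-23/27/24 clusters -0.08 over 5. The imprinted Mirg cluster had -0.06 over 27 members and the Rtl1-antisense and Meg3 miRNAs -0.06 over 11.

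The neuron-enriched list had a median below 0 under every alternative run. Of the 12 neuron-enriched miRNAs, 10 had log2 fold changes below 0. On each of the 3 days, 6 were lower and 1 was higher, against 226 (15.4%) and 235 (16%) of all 1470 entries. Their median was -0.25, with daily medians of -0.49, -0.20 and -0.23, and their range was -0.78 to 0.30. The median was -0.12 without ipsilateral replicate 1, -0.14 without day 1 and -0.37 without ipsilateral replicate 2. miR-124-3p, the best known of them, had 2321, 5949 and 5309.9 CPM in ipsilateral and 3036, 6984 and 5733 CPM in contralateral cortex, and miR-138-5p, which acts at dendritic spines, had 2232, 4706 and 2584 CPM in ipsilateral and 5819.6, 7187 and 3051 CPM in contralateral libraries. Both overlapped between hemispheres and were lower in ipsilateral cortex on each day. miR-132 and miR-212, whose transcription follows neuronal activity, are on the activity-regulated list, of which 2 of 5 members were lower on each day and the median was -0.08, or 0.01 when libraries were scaled by total counts alone. miR-132-3p had 5012, 6835 and 8379.8 CPM in ipsilateral and 5853, 8048 and 7316 CPM in contralateral cortex, higher in ipsilateral cortex on day 3 and lower on the other days.

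The lists of miR-29 and miR-15/16 members, each of which shares the seed shown above, had lower medians. All 3 miR-29 members were lower in ipsilateral cortex on each day, against 15.4% of all entries, with a median of -0.34. That median was -0.19 without ipsilateral replicate 1 and -0.63 without ipsilateral replicate 2. miR-29a-3p had 5347, 15080.0 and 9784 CPM in ipsilateral and 7115, 17275 and 13138 CPM in contralateral cortex, and miR-29c-3p had 604, 1648 and 972 CPM in ipsilateral and 922, 1905 and 1333 CPM in contralateral libraries. Within a day the ipsilateral library was the lower one, and across days all groups overlapped. miR-29 is known to repress collagens and proteins that promote cell death. The miR-15/16 list holds 6 of the 8 tested entries found with the seed AGCAGCA, and the others are not described here. Of these 6 listed members, 5 were lower on each day, again against 15.4% of all entries. The exception was miR-15b-5p with 109, 43.4 and 109 CPM in ipsilateral and 140.1, 47.8 and 74.4 CPM in contralateral cortex. miR-16-5p, the most abundant of the listed members and a repressor of cell cycle and survival genes, had 3350.1, 8162 and 8459.7 CPM in ipsilateral and 4005, 9570.1 and 8898 CPM in contralateral libraries. The median of the 6 listed members was -0.33, or -0.19 without ipsilateral replicate 1.

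miRNAs known from hypoxia, injury and p53 responses differed in direction among themselves. miR-210-3p, the classic target of hypoxia-inducible factor, had 25.5, 59.95 and 45.3 CPM in ipsilateral and 57.3, 77.6 and 49.9 CPM in contralateral cortex, lower on each day, while miR-210-5p from the same hairpin had 52.3, 25.2 and 21.6 CPM in ipsilateral and 33.6, 24.6 and 12.7 CPM in contralateral libraries, higher on each day. The groups overlapped for both arms. miR-146a-5p and miR-146b-5p, which restrain inflammatory signalling, were higher on each day, at 176, 275 and 506 CPM in ipsilateral and 157, 202 and 430.2 CPM in contralateral cortex for miR-146a-5p, and 444, 496 and 896 CPM in ipsilateral and 394, 343 and 594 CPM in contralateral libraries for miR-146b-5p. Both overlapped between hemispheres, and day 3 was the highest day on either side. miR-21a-5p, induced in many injuries, had 979, 2020.3 and 1309 CPM in ipsilateral and 1367, 1606 and 1219 CPM in contralateral libraries, with full overlap. miR-34c-5p had 536, 633 and 215 CPM in ipsilateral and 288, 320.0 and 183 CPM in contralateral cortex, higher on each day, while miR-34a-5p, the main p53 target of that list, had 51.6, 125 and 119 CPM in ipsilateral and 80.3, 131 and 132 CPM in contralateral libraries and was lower on each day. The lists had medians of -0.04 for hypoxia, 0.01 for injury and inflammation and 0.32 for miR-34. The sign of the first and second of these changed under some alternatives, and the miR-34 median ranged from 0.06 without ipsilateral replicate 3 to 0.54 without day 2. The 4 entries of miR-7 and miR-671, known from the circular RNA Cdr1as, which binds both, had a median of 0.16, which was 0.02 without ipsilateral replicate 2 and 0.66 without day 1, with values in between when other libraries were left out. Of these, miR-671-5p was at 75.8, 48.1 and 71.2 CPM in ipsilateral and 36.9, 39.4 and 28.1 CPM in contralateral cortex, without overlap, and miR-7a-5p at 18.8, 93.9 and 41.0 CPM in ipsilateral and 46.7, 40.1 and 29.9 CPM in contralateral libraries.

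Tested markers of other cells that the dissected cortex could hold were present in all 6 libraries, with none at 0. Some listed markers were not in the table, which held 164 of the 172 members of all lists. The erythrocyte list had a median of -0.41 over 3 members, led by miR-451a with 43.6, 133 and 91.8 CPM in ipsilateral and 72.1, 145 and 132 CPM in contralateral cortex, lower on each day. Without ipsilateral replicate 1 that median was -0.20. Leukocyte and microglia markers summed to 1133, 2014 and 1776 CPM in ipsilateral and 1352, 2644 and 1941 CPM in contralateral cortex, with a median log2 fold change of -0.19, or -0.04 without ipsilateral replicate 1, -0.35 without ipsilateral replicate 2 and -0.08 without contralateral replicate 2. The neutrophil marker miR-223-3p was low, at 8.72, 14.2 and 11.9 CPM in ipsilateral and 12.3, 15.5 and 9.98 CPM in contralateral libraries. Of the 6 tested leukocyte and microglia markers, 3 were lower in ipsilateral cortex on each day and 1, miR-146a-5p, was higher on each, against 15.4% and 16% of all entries. Vascular markers had a median of -0.10, oligodendrocyte markers -0.09, meningeal and fibroblast markers 0.03 and the epithelial clusters miR-200 and miR-183 -0.23, and each of these signs changed with single libraries or days left out. The epithelial median was 0.64, -0.59 and -1.22 on the 3 days, -1.26 without ipsilateral replicate 1, 0.16 without ipsilateral replicate 2 and 0.15 without ipsilateral replicate 3. miR-10b-5p of the meningeal list had 127, 138 and 423 CPM in ipsilateral and 103, 34.9 and 78.0 CPM in contralateral cortex without overlap, but 818, 119.7 and 127 CPM in sham cortex, whose replicate 1 was the highest of all. The muscle list had 1 tested member and a value of 0.14, below 0 without contralateral replicate 1. miR-363-3p, miR-142a-3p, miR-200c-3p, miR-96-5p, miR-1a-3p and miR-206-3p had between 1 and 15 counts in each library of 3 h and were removed by the filter on low counts.

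**Figure D3:**
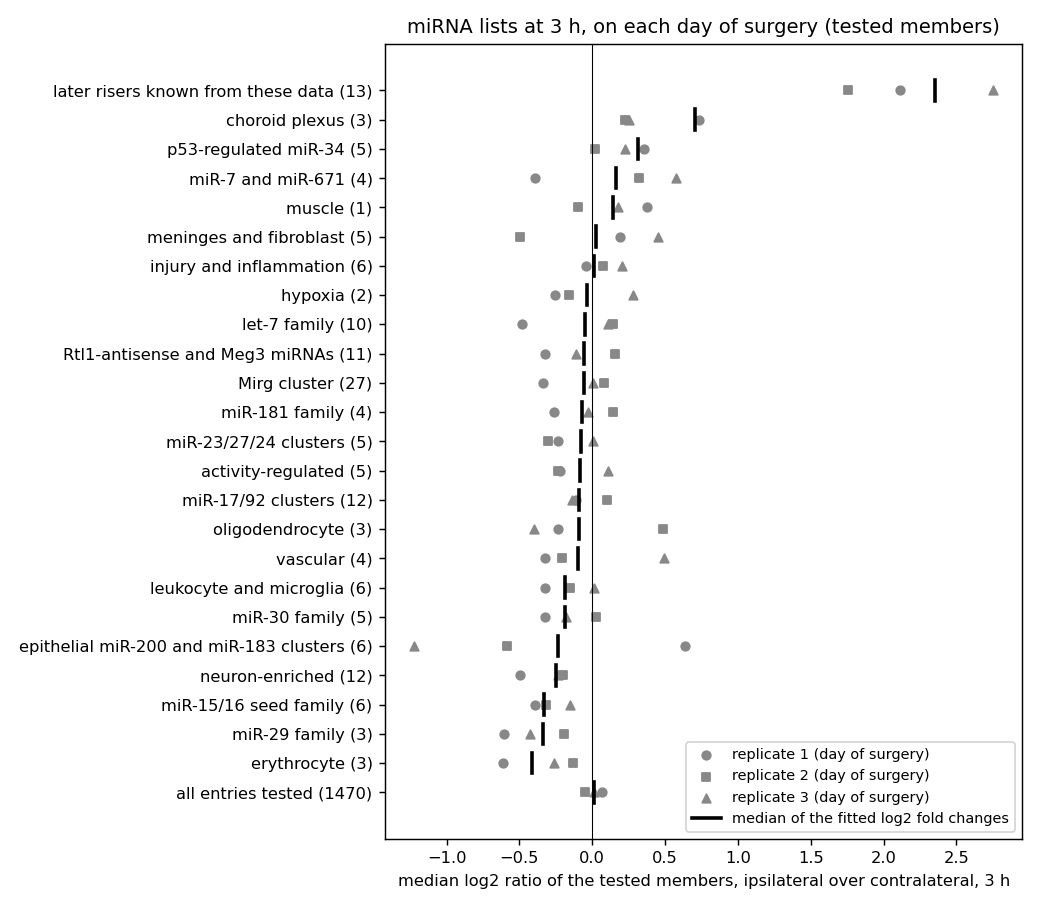
Median log2 ratio, ipsilateral over contralateral cortex, of the tested members of each list at 3 h (number in brackets), as the fitted median (bar) and as the median on each day of surgery (symbols). The list of later risers, chosen from earlier results of these data, stands at 2.35, and every list but that one and the choroid plexus list lies between -0.41 and 0.32.

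Entries with the largest differences toward higher ipsilateral levels were rich in G and C. The median share of G and C in the mature sequence was 66.7% for the 39 matched entries with a log2 fold change above 1, against 52.4% for all 1290 matched entries. At least 70% G and C was found in 15 of those 39 (38.5%), against 79 of 1290 (6.12%) overall. The capitalised seeds of miR-6968-5p, miR-2861, miR-8109 and miR-5131 above consist of G and C with at most 1 U. The other printed seeds of the first set, among them those of miR-7009-3p and miR-204-5p, hold more bases that are A or U. Across classes of base composition the median log2 fold change was -0.16 for entries under 40% G and C, -0.08 from 40% to 50%, 0.01 from 50% to 60%, 0.16 from 60% to 70% and 0.38 from 70% up. All ipsilateral libraries were above all contralateral ones for 19 of the 79 entries in the highest class (24.1%), and below for 0. Over all 1470 entries these shares were 6.39% above and 2.65% below. In the lowest class they were above for 2 of 164 and below for 10. The median contralateral level was 12.9 CPM in the highest class and 20.2 CPM in the lowest. These are descriptions across entries, which share libraries and amplification, and the part of base composition in the hemisphere differences was not tested.

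**Figure D4:**
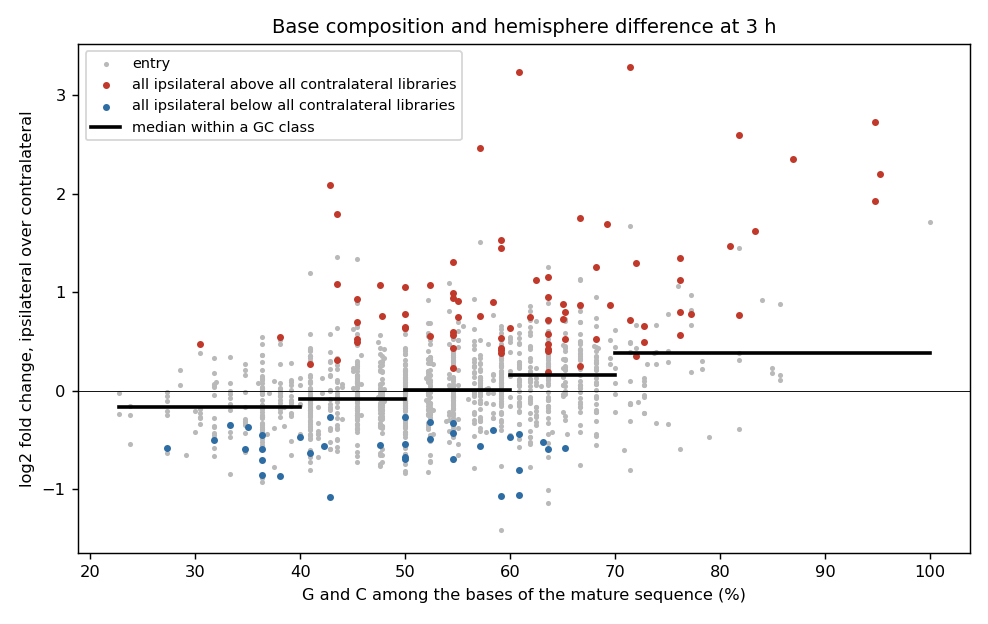
Share of G and C among the bases of the mature sequence (horizontal axis, %) against the log2 fold change, ipsilateral over contralateral cortex at 3 h, for the 1290 entries with a matched sequence. Bars are medians within classes of base composition and go from -0.16 under 40% to 0.38 from 70% up; red points, whose ipsilateral libraries all lie above the contralateral ones, are frequent at the right.

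Of the 12 named higher entries, 6 (miR-3960, miR-1934-5p, miR-5131, miR-7687-3p, miR-2861 and miR-6968-5p) belong to a set already known from later times of these data. Of the 13 entries of that list, all tested, 12 were higher on each day and had groups that did not overlap, against 16% and 6.39% of all entries. The list was chosen from results of these data, so this count is a description only. Its median log2 fold change at 3 h was 2.35, and its summed level was 2469, 1072 and 2149 CPM in ipsilateral and 423, 248 and 354 CPM in contralateral cortex. The exception was miR-3109-5p, from an intron of Anxa2, at 16.1, 7.10 and 13.0 CPM in ipsilateral and 8.60, 9.70 and 7.26 CPM in contralateral cortex. miR-701-5p, from an intron of Ttc28 (chr5:111004170-111004190, plus strand), was at 47.6, 66.3 and 54.0 CPM in ipsilateral and 10.2, 12.9 and 19.1 CPM in contralateral cortex at 3 h. The groups did not overlap; the log2 fold change was 2.09 ± 0.80, with an edgeR adjusted p of 0.751. miR-6240 was at 218, 109 and 287 CPM in ipsilateral and 56.5, 38.8 and 97.1 CPM in contralateral libraries, also without overlap.

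Whether the hemisphere difference of an entry at a later time differed from that at 3 h was tested in the same fit, as a difference of the 2 contrasts. Between 24 h and 3 h, 5 entries passed with a larger difference at 24 h and none with a smaller one (0.34% and 0% of 1470). miR-701-5p had 12613, 4285 and 1883 CPM in ipsilateral and 21.7, 13.5 and 30.4 CPM in contralateral cortex at 24 h. Its hemisphere difference was larger at 24 h by 6.24 ± 1.15 on the log2 scale (edgeR adjusted p = 0.0483). miR-3109-5p, at most 16.1 CPM in either hemisphere at 3 h, had 436, 193 and 89.6 CPM in ipsilateral and 2.83, 2.53 and 5.84 CPM in contralateral cortex at 24 h, a difference of contrasts of 5.70 ± 1.16. The other 3 were miR-5627-3p with 4.83 ± 0.97, miR-1247-5p, in an exon of the imprinted Dio3os RNA, with 3.11 ± 0.67, and miR-6959-3p, in an intron of Sbf1, with 3.10 ± 0.70 (edgeR adjusted p = 0.0483, 0.0497 and 0.0497). At 3 h these 3 had log2 fold changes of 0.29 ± 0.68, 0.66 ± 0.47 and 0.32 ± 0.48. The count rests on single libraries: it was 9 without contralateral replicate 3 of 3 h, 153 without ipsilateral replicate 3 of 24 h and 0 without any other single library of 3 h or 24 h.

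For miR-7009-3p and miR-5099 the fitted difference was about as large at 3 h as at 24 h. At 3, 6, 12 and 24 h it was 2.46 ± 0.48, 1.40 ± 0.51, 2.62 ± 0.52 and 2.71 ± 0.50 for miR-7009-3p. The same 4 values for miR-5099 were 1.04 ± 0.25, 0.92 ± 0.25, 0.54 ± 0.25 and 1.14 ± 0.25. The difference between 24 h and 3 h was 0.25 ± 0.67 for miR-7009-3p and 0.10 ± 0.35 for miR-5099 (edgeR adjusted p = 0.895 and 0.920). These p-values do not show that the times were equal. For miR-6968-5p the value at 24 h was 6.76 ± 0.80, a difference of 4.16 ± 0.99 from 3 h that narrowly missed the threshold (edgeR adjusted p = 0.0532).

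miR-204-5p had values in the other direction. Its log2 fold change was 0.70 ± 0.22 at 3 h, -0.12 ± 0.22 at 6 h, -0.20 ± 0.22 at 12 h and -0.58 ± 0.22 at 24 h. The level at 24 h was 2729, 2403 and 2218 CPM in ipsilateral and 5302, 3279 and 2808 CPM in contralateral cortex. The difference between 24 h and 3 h was -1.28 ± 0.31 (edgeR adjusted p = 0.0532), just outside the threshold. Between 12 h and 3 h and between 6 h and 3 h no entry passed in edgeR, with 80 and 43 entries at an unadjusted p under 0.05, while DESeq2 called 2 and 0.

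**Figure D5:**
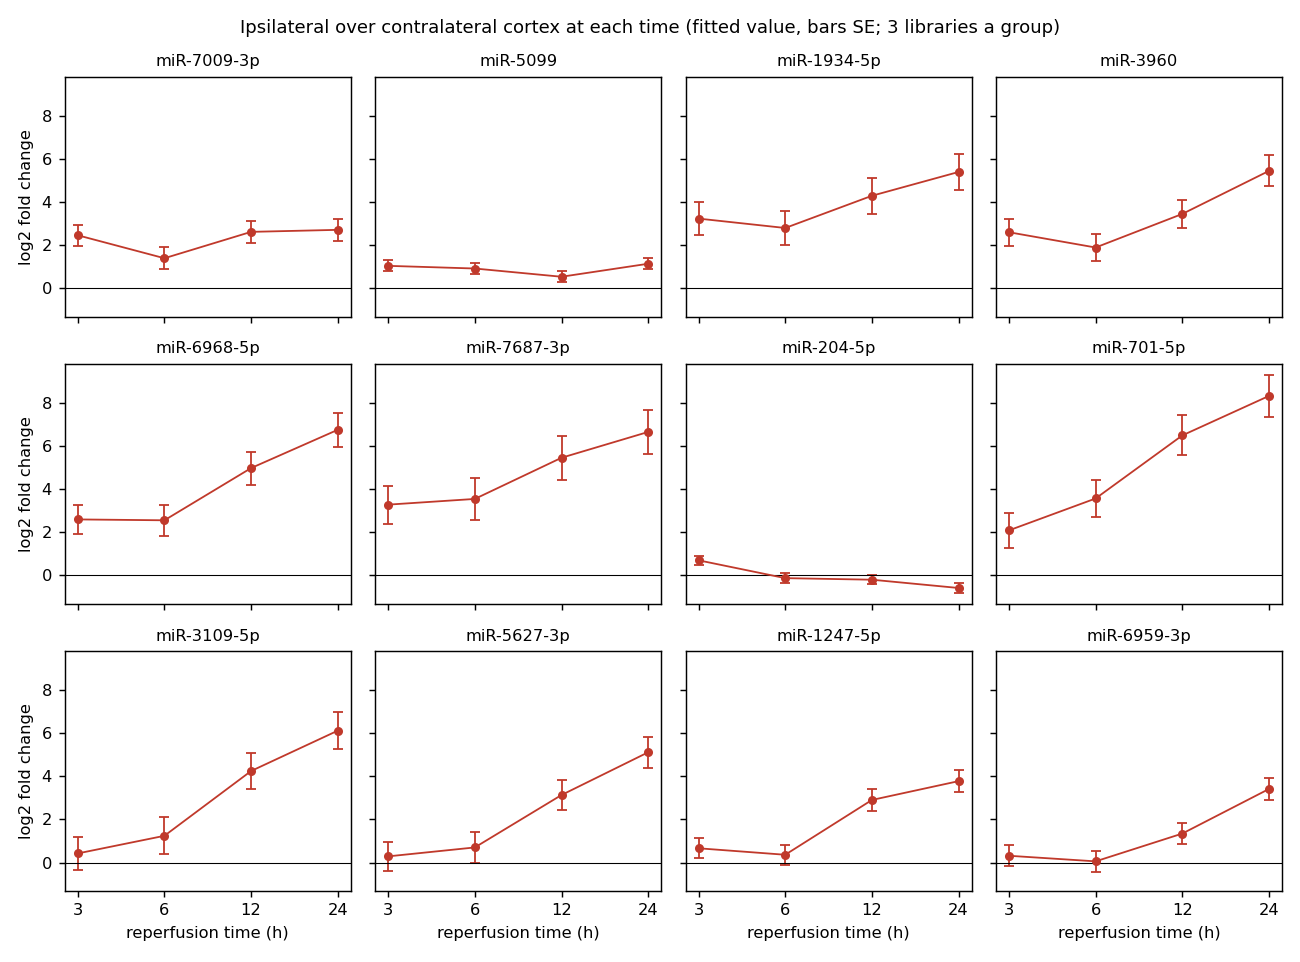
Fitted log2 fold change, ipsilateral over contralateral cortex, at 3, 6, 12 and 24 h of reperfusion (times equally spaced on the axis) for 12 entries, with bars of 1 SE from the fit of all 27 libraries. miR-7009-3p and miR-5099 are near their value of 24 h already at 3 h. miR-701-5p and the other entries that passed the test of 24 h minus 3 h start at 2.09 or lower. miR-204-5p is above 0 at 3 h and below 0 at 24 h.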

How the data were processed

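Small RNA was sequenced from mouse cortex. Per the labels' protocols, Trizol-extracted RNA was made into TruSeq small RNA libraries (inserts of 15 to 35 bp) and read on a MiSeq (69 bp, single-end). The authors deposited raw counts for 1842 mature miRNAs in 27 libraries as a single table, all of which was used. The submitters' processing notes list Novoalign and edgeR without role or version. Build, annotation release and handling of multiply matching reads: not given in the sources used here. Reads carry no molecular identifiers.

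Counts were tested with edgeR 4.0.16 (R 4.3.3): TMM factors, robust quasi-likelihood dispersions, filterByExpr by group (1470 entries kept, 372 removed, the kept ones holding between 99.76% and 99.93% of each library's counts), and 1 model of all 27 libraries with a mean per group and the replicate number as a block (16 residual degrees of freedom). A call is a Benjamini-Hochberg adjusted p, over these 1470 entries, below 0.05. The 4 comparisons were: ipsilateral against contralateral cortex at 3 h, and that difference at 24, 12 or 6 h minus that at 3 h. Libraries of one number share a day of surgery, per the series' design text; at 3 h their deviations from the group means correlated at 0.59, 0.44 and 0.23 on days 1, 2 and 3. Alternatives were other scalings and filters, no block, DESeq2 1.42.0 (which gave no adjusted p for 684 entries), the 6 libraries alone, 15 libraries of sham, 3 h and 6 h (added after seeing the data), and leaving out each library or day. None of the 27 pairs of replicates of a group agreed within sampling noise (lowest chi-square per degree of freedom 11.2).

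The members and the 24 lists (172 members in all, 164 in the table, 158 tested) were chosen with earlier results of these data known. Entries are named if they were among the 12 smallest unadjusted p-values per direction among those averaging 10 CPM or more with the same direction on all 3 days, list members, the 10 of highest mean level, DESeq2 calls at 3 h, or up to 6 calls per direction of a difference between times. Host genes come from GENCODE M21 (GRCm38). Tested on simulated data of 1470 entries drawn from these libraries' means and sizes, the 3 h test found 31.2% of 96 entries simulated at 2-fold and 89.2% of 93 at 4-fold, and made 0 false calls. For the difference between 24 h and 3 h it found 9.18% of 98 and 62.5% of 96, and made 4 false calls. The simulated counts had 1 mean per entry and no day effect, so these shares need not hold for the real libraries. In the real libraries, miR-7687-3p had a fitted log2 fold change of 3.28 at 3 h and was not called (edgeR adjusted p = 0.256).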

Additional observations from a re-analysis of the deposited data

Results flagged for a closer look

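The test of the difference between times found that the hemisphere contrast at 24 h differed from that at 3 h for 5 entries. On the log2 scale, the contrast was larger at 24 h by 6.24 for miR-701-5p, 5.7 for miR-3109-5p, 4.83 for miR-5627-3p, 3.11 for miR-1247-5p and 3.1 for miR-6959-3p. Their edgeR adjusted p values were 0.0483 for the first 3 and 0.0497 for the other 2, close to the threshold of 0.05. Of 19 alternative settings, 7 called miR-6959-3p, and 8 called each of miR-701-5p, miR-3109-5p, miR-5627-3p and miR-1247-5p. With 1 library left out, the count of calls went from 0 to 153. For each of the 5, the ipsilateral library of replicate 1 was the highest of its group at 24 h.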

How the results depend on the processing

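At 3 h the count of calls was 0 in the fit of all libraries with the replicate block and 0 without the replicate block (smallest edgeR adjusted p 0.0688). It was 1 with DESeq2 size factors or with no filter (miR-7009-3p each time), 12 with DESeq2, 53 in the 6 libraries alone, 11 there without the block, and 16 in 15 libraries, an alternative chosen after seeing the data. Leaving out 1 library or day gave 0 to 1 calls, the 1 without ipsi_3h replicate 2. For 24 h minus 3 h, where the main count was 5, it was 12 without the replicate block, 13 with DESeq2 size factors, 28 with total counts, 0 with TMM factors from entries of at least 100 CPM, 60 with a filter at a mean of 10 CPM and 100 with DESeq2; leaving out 1 library gave 0 to 153. For 12 h minus 3 h the count was 2 with DESeq2 and 0 to 1 with a library left out (1 without ipsi_12h replicate 2). The cause of these shifts was not tested. No alternative turned the direction of any of the 12 named higher and 12 named lower entries at 3 h. The log2 fold change at 3 h of miR-5627-3p ranged from -0.012 to 0.60 and that of miR-6959-3p from -0.092 to 0.66 with a library or day left out, below 0 without day 1 for both, and at -0.078 for miR-6959-3p without contra_3h replicate 1. Total counts moved the median of all entries at 3 h to 0.09. Of the 24 list medians, 10 kept their sign under every alternative run and 14 did not. At 3 h median counts per entry were 11 to 29. At these library sizes and 3 libraries a group, the simulation, which held no day effect, recovered 31.2% of 2-fold and 89.2% of 4-fold differences. These shares need not hold for the real libraries, and the part of depth in them was not tested.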
